A study of Mus musculus with 4 samples.

Results

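The Dkk3-positive astrocytes of the lateral septum (LS) were analysed as 1626 nuclei of the 58372 barcodes in 4 single-nucleus RNA sequencing (snRNA-seq) libraries. Nuclei with 200 to 6000 genes and under 2% mitochondrial UMIs (unique molecular identifiers, each marking a captured RNA molecule) were retained, which left 55660. An astrocyte gate then took nuclei in which Slc1a3, Gja1, Aqp4, Atp13a4 and Gli3 together had at least 4 UMIs from at least 2 of these genes and at least 0.2% of all UMIs. This gate held 7003 nuclei, and those with at least 1 UMI of Dkk3 were the Dkk3-positive astrocytes, 23.2% of the gate (exact Clopper-Pearson 95% interval 22.2 to 24.2%). The other 5377 gated nuclei had no Dkk3 UMI and are called Dkk3-zero, a name for the count and not for absence of the RNA.

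The libraries came from male mice, aged 6 to 8 weeks according to the labels and bought at 8 weeks according to the methods, with the LS tissue of 3 mice pooled in each. C57J 1 and C57J 2 were from C57BL/6JNifdc mice, BALB/c from BALB/c mice, and nude from BALB/c nude mice, which carry a Foxn1 mutation and lack mature T cells. Nude and BALB/c had 1 library each, C57J 1 was in batch 1 and the other libraries in batch 2, and the nude and BALB/c libraries share the BALB/c background, so strain, immune state and library cannot be told apart. The libraries held 102939576 UMIs (C57J 1), 72912922 (C57J 2), 82169638 (nude) and 125998527 (BALB/c), and values in a row below are in this library order unless named. The C57J libraries came from separate sets of mice by the study's methods. For Dkk3-positive against Dkk3-zero nuclei, compared within libraries, p-values measure how that difference varies over the 4 pools. Between backgrounds, they measure the spread between pools, of which batch and the difference of nude from BALB/c are a part. Pairs of libraries shared between 29 and 63 barcode sequences, 0.231% to 0.478% of the smaller library.

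Dkk3 encodes a secreted glycoprotein of the Dickkopf family. Other Dickkopf proteins bind the Wnt co-receptors Lrp5 and Lrp6 and so block Wnt signalling through beta-catenin, whereas Dkk3 is the divergent member and its action on Wnt depends on the cell. Astrocytes clear glutamate through Slc1a3 and Slc1a2, couple through gap junctions of Gja1 and carry water through Aqp4, and their regional subtypes differ in receptors, transporters and secreted factors. The LS lies beside the lateral ventricle, whose wall holds ependymal cells with motile cilia and neural stem cells that are related to astrocytes.

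Dkk3 (ENSMUSG00000030772, mm10 chromosome 7, 112116017 to 112159057, minus strand) was found in 398 of 1947 gated nuclei of C57J 1, a share of 20.4% (18.7 to 22.3%). In C57J 2 it was in 196 of 1512 nuclei, or 13% (11.3 to 14.8%), and in nude in 236 of 1565, or 15.1% (13.3 to 17%). The BALB/c library had the highest share, 40.2% (796 of 1979, interval 38.1 to 42.4%). BALB/c was thus above the other libraries, and C57J 2 and nude overlapped. The astrocytes of BALB/c were also sequenced more deeply, with a median of 4474 UMIs per gated nucleus against 2813 in C57J 1, 2141 in C57J 2 and 2267 in nude. With each nucleus thinned to 2000 UMIs, shallower nuclei left out, the share was 14% of 1676 nuclei, 11% of 879, 12.6% of 995 and 24.0% of 1965 in library order. At 1000 UMIs it was 7.83%, 6.52%, 6.94% and 14.9% in library order, so BALB/c stayed highest at equal depth. No test was run, because Dkk3 chose the nuclei and nude and BALB/c are 1 library each. All intervals cover counting error only.

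**Figure D1:**
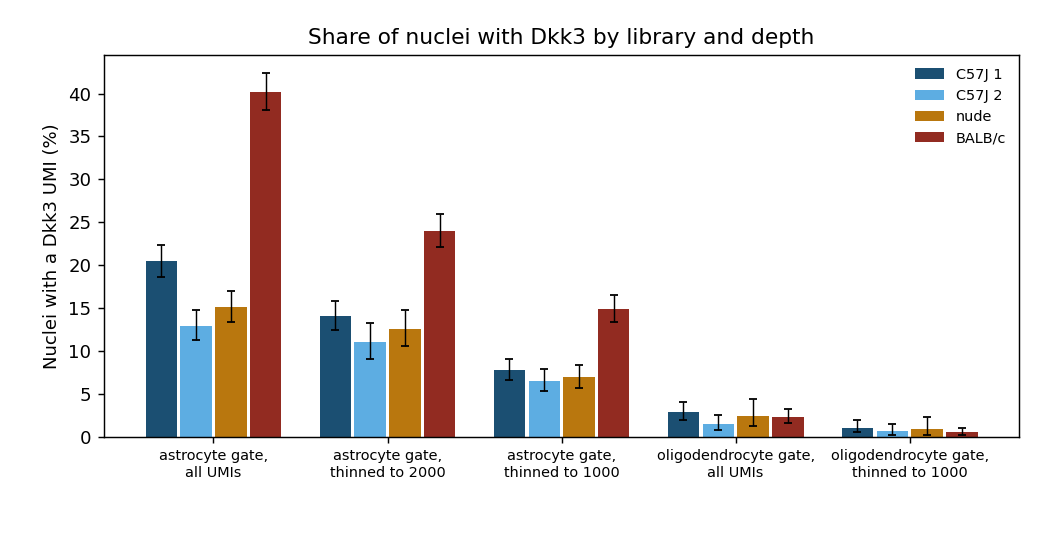
Percentage of nuclei with at least 1 Dkk3 UMI (vertical axis) in the astrocyte gate and in an oligodendrocyte gate, for all UMIs and after thinning to a fixed number of UMIs per nucleus; bars are libraries and error bars exact 95% binomial intervals. In the astrocyte gate BALB/c is highest at every depth, 40.2%, 24.0% and 14.9%, whereas no oligodendrocyte bar exceeds 2.88%.

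Free RNA can place a UMI in a nucleus that does not express a gene, so the share was set against nuclei of other classes. In nuclei gated as oligodendrocytes by the same form of rule, 2.88%, 1.53%, 2.47% and 2.36% had a Dkk3 UMI, at medians of 2420, 2068, 1898 and 3879 UMIs. Thinned to 1000 UMIs, these shares were 1.07%, 0.666%, 0.915% and 0.540%, each below the astrocytes of the same library. Summed over the whole gate, Dkk3 was at 85.5, 68.9, 75.1 and 158 CPM (UMIs of the gene per 1000000 UMIs of those nuclei). The oligodendrocyte values were 11.4, 7.94, 11.7 and 5.68 CPM. In a microglial gate Dkk3 was at 12.1, 4.70, 0 and 15.6 CPM, and 5, 1, 0 and 11 nuclei of 220, 141, 111 and 270 had a UMI, so BALB/c had the lowest level in oligodendrocytes and the highest in microglia. Nuclei of a neuronal gate, which were deeper, had 6.47, 6.30, 6.45 and 6.20 CPM.

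Most Dkk3-positive astrocytes were chosen on a single molecule. A count of exactly 1 UMI was found in 1118 (68.8%), 2 UMIs in 304 and 3 or more in 204, with a highest count of 13 in BALB/c. The nuclei with exactly 1 UMI made up 78.4%, 82.7%, 82.2% and 56.5% of the positive nuclei. Dkk3-positive nuclei were slightly deeper than Dkk3-zero nuclei, with median UMIs of 2937, 2213, 2463 and 4541 against 2788, 2137, 2234 and 4431. At the edge of the gate, 9 of 48, 11 of 135, 11 of 103 and 2 of 4 nuclei with exactly 4 gate UMIs had Dkk3. Among nuclei with 3 gate UMIs that met the percentage limit, the numbers were 2 of 17, 9 of 68, 5 of 70 and 0 of 1.

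The astrocyte identity of the nuclei was checked on 20 astrocyte genes that the gate did not use. Their summed level was 15849, 13546, 12632 and 17208 CPM in Dkk3-positive nuclei, close to the 16180, 13158, 12616 and 17118 CPM of Dkk3-zero nuclei. Nuclei outside the gate had 1502, 1137, 1075 and 930 CPM. The most abundant gene was the glutamate transporter Slc1a2, with a mean over libraries of 6691 CPM in Dkk3-positive, 6155 CPM in Dkk3-zero and 394 CPM in other nuclei. Slc1a3, the gate gene with the highest level, was at 2792, 2679, 2755 and 3206 CPM in Dkk3-positive nuclei. These levels held for the summed nuclei of each state, whereas 460 nuclei fell in small clusters with other leading genes, described below.

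Markers of other classes were summed in the same way. The 14 neuronal markers were at 6727, 6476, 7720 and 4514 CPM in Dkk3-positive nuclei and 6301, 7275, 8502 and 4242 CPM in Dkk3-zero nuclei, against 26798, 25727, 27047 and 24970 CPM in nuclei outside the gate. The most abundant of them was Meg3, a noncoding RNA, with a mean of 1926 CPM in Dkk3-positive and 1839 CPM in Dkk3-zero nuclei. The summed level was higher in Dkk3-positive nuclei of 2 libraries and lower in the other 2, and Meg3 was higher in 3 of 4. The 8 oligodendrocyte markers were at 1407, 1531, 1059 and 1001 CPM in Dkk3-positive and 1548, 1637, 1053 and 1120 CPM in Dkk3-zero nuclei. In nude, the 6 ependymal markers were at 120 CPM in Dkk3-positive and 13.1 CPM in Dkk3-zero nuclei, whereas the Dkk3-positive values were 32.3, 8.66 and 17.6 CPM in C57J 1, C57J 2 and BALB/c, against Dkk3-zero values of 18.5, 33.8 and 12.9 CPM. C57J 2 thus ran the other way. A gate of the same form for ependymal markers was met by 1 Dkk3-positive nucleus in nude, 1 in C57J 1 and 0 in the other libraries. Of the markers of the 11 other classes, only Kcnj8, a mural cell channel, had no UMI in Dkk3-positive nuclei.

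Mixed nuclei were looked for with gates for neurons, oligodendrocytes, OPCs, microglia and endothelial cells. At least 1 of these gates was met by 90.2%, 92.9%, 94.5% and 61.4% of Dkk3-positive nuclei, and by 89.5%, 93.2%, 96.5% and 54.2% of Dkk3-zero nuclei. Neuronal markers accounted for nearly all of it, since the neuronal gate alone was met by 88.2%, 90.8%, 93.6% and 58.4% of Dkk3-positive nuclei. Neuronal markers above 1% of UMIs were found in 5.78%, 8.16%, 17.8% and 2.39% of Dkk3-positive and in 5.68%, 12.7%, 20.7% and 2.11% of Dkk3-zero nuclei. Doublets predicted from simulated pairs of nuclei made up 9.05%, 4.08%, 12.7% and 7.41% of Dkk3-positive nuclei and 10.3%, 10.6%, 13.1% and 8.37% of Dkk3-zero nuclei. They were kept in the comparisons below and left out in an alternative.

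To learn what else distinguishes astrocytes with Dkk3, UMIs were summed over Dkk3-positive and over Dkk3-zero nuclei of each library and compared with the library as a block. Dkk3-positive astrocytes had higher levels of Veph1, Armc3, the noncoding RNA C230072F16Rik, the Wnt receptor gene Fzd5 and the dopamine receptor gene Drd3, and lower levels of Svep1, Aldh1a1, the glycine transporter gene Slc6a9, Agt and Lrig1. Of 13046 genes tested, 106 were called higher (0.813%) and 59 lower (0.452%) with limits of 0.05 on the Benjamini-Hochberg adjusted p and 0.5 on the size of the log2 fold change, by the quasi-likelihood test of edgeR (1468 genes had an unadjusted p below 0.05). Of these, 85 were higher and 46 lower in every library, against 1291 and 968 of all genes tested. The blocked test favours genes that move alike in the libraries, so these numbers are a description. DESeq2 called 35 of the higher and 16 of the lower genes. The Dkk3-positive side of this comparison rested on BALB/c for 62.3% of its UMIs, and without that library 28 genes were higher and 13 lower, of which 26 and 12 were among the original calls. Of the 10 genes named here, Fzd5, Drd3, Agt and Lrig1 were not called without BALB/c.

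Veph1 (ENSMUSG00000027831, chromosome 3, 66053558 to 66296837, minus strand), which encodes a pleckstrin homology domain protein, had the largest rise among genes that rose in every library and reached 10 CPM. It was at 11.5, 30.3, 43.7 and 65.3 CPM in Dkk3-positive and 4.96, 4.63, 12.5 and 7.40 CPM in Dkk3-zero astrocytes. The log2 fold change was 2.47 (standard error, SE, 0.20, adjusted p = 6.09e-09 by edgeR's quasi-likelihood test, Benjamini-Hochberg adjusted). The Dkk3-positive value of C57J 1 was the lowest and lay below the Dkk3-zero value of nude, so the states overlapped between libraries but not within any. Without BALB/c the log2 fold change was 1.81.

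Several of the genes with the largest rises encode proteins known from cilia and flagella. Armc3 rose to 7.68, 10.8, 20.3 and 10.8 CPM from 1.94, 3.31, 1.87 and 2.11 CPM, a log2 fold change of 2.35 (SE 0.33). Every Dkk3-positive library was above every Dkk3-zero library for this gene, but on 10, 5, 13 and 43 UMIs in Dkk3-positive nuclei. Togaram2, of a family that acts on ciliary microtubules, had a log2 fold change of 1.48 (SE 0.20), Enkur, a flagellar adaptor protein, 1.42 (0.23), and Ak9, an adenylate kinase, 1.38 (0.30). Without BALB/c, Enkur (0.95, adjusted p = 0.321) and Ak9 (1.05, adjusted p = 0.547 by edgeR) were not called. These genes were chosen by the size of their rise and not from a list of cilium genes, and no such list was tested. Of the ependymal list, 4 of 6 genes were tested and 1, Cfap299, was called higher, against 0.813% of all genes tested. Cfap299 was at 15.4, 2.17, 37.5 and 7.29 CPM in Dkk3-positive and 5.60, 9.60, 1.56 and 4.23 CPM in Dkk3-zero astrocytes, and was not called without C57J 1, without nude (adjusted p = 0.441 in the same edgeR test) or without BALB/c. The summed ependymal markers moved in the same direction in nude, as given above. Leaving out the nuclei of the ependymal gate removed 2 Dkk3-positive and 4 Dkk3-zero nuclei, and 98 of the 106 higher and 57 of the 59 lower calls were then kept.

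The remaining large rises were of other kinds. C230072F16Rik (chromosome 17) and Gm29260 (chromosome 1) are long noncoding RNAs with log2 fold changes of 2.22 (SE 0.24) and 1.54 (0.18). Adamts18, a secreted metalloprotease, was at 29.2, 73.6, 26.6 and 40.7 CPM in Dkk3-positive and 20.5, 30.1, 10.9 and 3.17 CPM in Dkk3-zero astrocytes, with a log2 fold change of 1.67 (0.25). Its lowest Dkk3-zero value and its largest ratio were in BALB/c. Pter, of the phosphotriesterase family, had a log2 fold change of 1.66 (0.21), and Pawr, a pro-apoptotic regulator, of 1.52 (0.19).

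**Figure D2:**
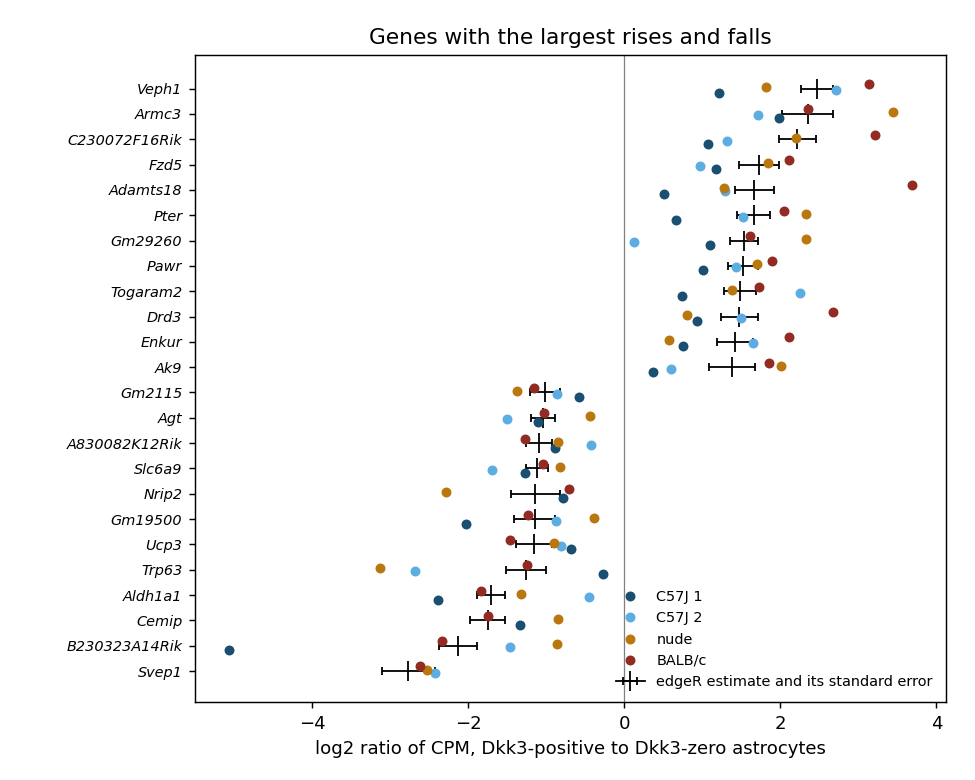
Log2 ratio of CPM in Dkk3-positive to Dkk3-zero astrocytes (horizontal axis) for the 12 largest rises and 12 largest falls; coloured points are libraries, the tick and bar the edgeR estimate with its standard error, and a library with no UMI in a state has no point. For Veph1 the estimate is 2.47 and for Svep1 -2.77, and every point lies on the side of its estimate, as the choice of genes requires.

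Among Wnt genes, the rises were in secreted inhibitors and a receptor. Of 21 genes for Dickkopf proteins and other Wnt inhibitors, 10 were tested, 2 were higher and 0 lower (0.813% and 0.452% of all genes tested), with a median log2 fold change of 0.08 against -0.0019 over all genes tested. Sfrp1, which binds Wnt ligands outside the cell, was at 9.98, 8.66, 26.6 and 59.6 CPM in Dkk3-positive and 9.05, 7.28, 16.8 and 21.5 CPM in Dkk3-zero astrocytes. Its log2 fold change was 1.08 (SE 0.17, adjusted p = 0.000147 by the same edgeR test) but 0.38 without BALB/c, when it was not called. Notum, an enzyme that removes the lipid that Wnt ligands need, had a log2 fold change of 1.80 (SE 0.42), was higher in 3 of 4 libraries, and was not called without nude (1.65, adjusted p = 0.0714 by edgeR).

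Of 19 Wnt receptor genes, 17 were tested and only Fzd5 was called, against 0.813% of all genes tested called higher and 0.452% lower. Fzd5 (chromosome 1, 64730558 to 64737751), a Frizzled receptor, was at 9.22, 6.50, 7.81 and 20.6 CPM in Dkk3-positive and 4.09, 3.31, 2.18 and 4.76 CPM in Dkk3-zero astrocytes. The lowest Dkk3-positive value was above the highest Dkk3-zero value, but the Dkk3-positive values rest on 12, 3, 5 and 82 UMIs. The log2 fold change was 1.73 (SE 0.26, adjusted p = 7.47e-05 by edgeR), and without BALB/c it was 1.26 with an adjusted p of 0.434. The co-receptor genes Lrp5 and Lrp6 had log2 fold changes of -0.01 and 0.12 and were not called. Of 22 Wnt ligands and R-spondins 7 were tested, of 12 intracellular Wnt components 12, and 0 were called in either list. Wnt5b had the largest positive value of these ligands, 0.87 (SE 0.33, adjusted p = 0.227 by edgeR), and Axin2, a target of Wnt signalling, 0.13.

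Of the 5 dopamine receptor genes 3 were tested and 1 was called higher, against 0.813% of all genes tested. Drd3 (chromosome 16, 43754026 to 43822932), a receptor that lowers cyclic AMP, was at 22.3, 34.7, 12.5 and 14.6 CPM in Dkk3-positive astrocytes. In Dkk3-zero astrocytes it was at 11.6, 12.2, 7.17 and 2.29 CPM. It was higher in every library, and all Dkk3-positive values were above all Dkk3-zero values, on 29, 16, 8 and 58 Dkk3-positive UMIs. The margin was small, with 12.5 CPM in Dkk3-positive nuclei of nude against 12.2 CPM in Dkk3-zero nuclei of C57J 2. The log2 fold change was 1.47 (SE 0.24, adjusted p = 0.000147 by edgeR's quasi-likelihood test, Benjamini-Hochberg adjusted), and without BALB/c 1.07 (adjusted p = 0.0533). Drd2 and Drd1 had log2 fold changes of -0.60 (SE 0.26) and -0.30 (0.33) and were not called. Among 30 hormone receptors, 20 were tested and, against 0.813% of all genes tested, only Tshr, the thyrotropin receptor, was called higher. It was at 9.98, 10.8, 6.25 and 5.53 CPM against 1.72, 2.65, 1.87 and 2.29 CPM, a log2 fold change of 1.78 (SE 0.37, adjusted p = 0.00363 by edgeR), with an adjusted p of 0.0781 without C57J 1.

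Of 20 genes known to mark astrocyte subtypes, 18 were tested, 3 were higher and 3 lower, against 0.813% and 0.452% of all genes, with a median log2 fold change of -0.06. Thbs4, a thrombospondin of the extracellular matrix that also marks astrocytes from the subventricular zone, was at 42.2, 39.0, 25 and 37.9 CPM in Dkk3-positive and 21.6, 34.1, 7.48 and 7.58 CPM in Dkk3-zero astrocytes. Its log2 fold change was 1.35 (SE 0.20), and 0.85 without BALB/c, when it was not called. Vim and Id3, the other genes called higher, were higher in 3 of 4 libraries and were also not called without BALB/c, nor was Id3 without C57J 1 or without nude. Lrig1, which names another septal astrocyte subtype, was at 155, 128, 166 and 161 CPM against 221, 193, 197 and 290 CPM. It was lower in every library, with a log2 fold change of -0.64 (SE 0.08, adjusted p = 3.35e-06 by edgeR) and of -0.46, below the limit of 0.5 in size, without BALB/c. Agt, the angiotensinogen precursor, was at 14.6, 8.66, 14.1 and 19.4 CPM against 31.5, 24.5, 19.0 and 39.3 CPM, a log2 fold change of -1.04 (SE 0.16) and an adjusted p of 0.0591 without BALB/c by the same edgeR test. Kcnj16, the other called member, was lower in 2 libraries and higher in 2, and was not called without C57J 1 or without BALB/c. Ranbp3l and Gfap had log2 fold changes of -0.19 and 0.36 with edgeR's adjusted p of 0.203 and 0.213, so they did not pass.

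None of the general astrocyte genes passed both limits. All 20 genes that checked the label were tested, with a median log2 fold change of -0.11. Of these 20, 3 were higher and 6 lower in every library, against 9.90% and 7.42% of all genes tested. Slc4a4 (-0.27), Fgfr3 (-0.31), Gjb6 (-0.34) and Bcan (-0.21) had an adjusted p below 0.05 by edgeR but lay below the limit of 0.5 in size. Among glutamate and GABA handling genes, 11 of 12 were tested and Slc6a9 was the call, against 0.452% of all genes tested called lower. Slc6a9 (GlyT1) takes up glycine and was at 13.8, 8.66, 20.3 and 21.9 CPM in Dkk3-positive and 33.4, 28.1, 35.8 and 44.9 CPM in Dkk3-zero astrocytes, a log2 fold change of -1.12 (SE 0.15, adjusted p = 7.66e-06 by edgeR). Its Dkk3-positive values all lay below its Dkk3-zero values. Slc6a11, which takes up GABA, had a log2 fold change of -0.46, below the limit.

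The largest fall was that of Svep1, an extracellular adhesion protein. It had 0, 1, 1 and 11 UMIs in Dkk3-positive astrocytes, that is 0, 2.17, 1.56 and 2.76 CPM, against 6.90, 11.6, 9.04 and 16.9 CPM. The log2 fold change was -2.77 (SE 0.34, adjusted p = 3.23e-06 by edgeR), a value that depends on few UMIs. Aldh1a1, which makes retinoic acid, was at 13.1, 52.0, 3.12 and 14.8 CPM against 68.1, 70.8, 7.79 and 52.9 CPM, a log2 fold change of -1.71 (SE 0.18). Both states of nude had the lowest Aldh1a1 levels. B230323A14Rik, annotated as antisense, had a log2 fold change of -2.13 (0.24), Cemip, which degrades hyaluronan, of -1.75 (0.22), and Trp63, a transcription factor of the p53 family, of -1.26 (0.25). Of the 285 Cemip UMIs in Dkk3-zero astrocytes, 235 lay in 26 nuclei of cluster 9, a small group described below that Cemip itself leads, and 218 of these were from BALB/c. Outside that cluster Cemip was at 1.54, 0, 3.12 and 2.28 CPM in Dkk3-positive and 1.94, 5.64, 4.05 and 1.97 CPM in Dkk3-zero astrocytes, so the states overlapped. Cemip did not pass the filter on low counts without BALB/c or without clusters 5 to 9. Ucp3, a mitochondrial carrier, Nrip2 and the noncoding RNAs A830082K12Rik and Gm19500 had log2 fold changes between -1.16 and -1.09, and Gm2115 of -1.01. The 2 genes annotated as antisense cannot be told from their partners if reads were counted without strand, which the sources used here do not give. Nrip2 was not called when any 1 of the 4 libraries was left out, with log2 fold changes of -1.48 to -0.96 and adjusted p of 0.0685 to 0.213 in the same edgeR test. Trp63, Ucp3, A830082K12Rik, Gm19500 and Gm2115 were not called without BALB/c. Gm19500 (adjusted p = 0.405) and Nrip2 (0.0628 by edgeR) were also not called without clusters 5 to 9.

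Other fixed lists had few members called, and the shares over all genes tested were 0.813% higher and 0.452% lower. Of 32 receptors for other transmitters 31 were tested, 0 were higher and 2 lower, the glutamate receptor gene Gria1 (-0.50) and the GABA-B receptor gene Gabbr2 (-0.55). Of 22 ion channel and pump genes all were tested, 0 were higher and 3 lower, among them Trpm3 (-0.59) and the potassium channel gene Kcnd2 (-0.54). Trpm3 is a cation channel and was at 1935, 2261, 1640 and 1895 CPM in Dkk3-positive and 2847, 2577, 2383 and 3605 CPM in Dkk3-zero astrocytes. The 2 states did not overlap for Trpm3, whose log2 fold change was -0.45 without BALB/c. Gria1, Gabbr2, Kcnd2 and Cdh20 were also below the limit of 0.5 in size without that library. Of 38 adhesion and guidance genes, 38 were tested, and Sema3e (1.21) and Ntn1 (0.54) were higher and Cdh20 (-0.51) lower. Sema3e and Ntn1 were not called without BALB/c (adjusted p of 0.771 and 0.668 by edgeR). Cdh20 was also the 1 gene called of the 16 for junctions and lamellipodium. Of 27 matrix genes tested Thbs4 was higher and Lama1, a laminin chain, lower (-1.72). Of the 189 Lama1 UMIs in Dkk3-zero astrocytes, 158 lay in the same 26 nuclei of cluster 9, and Lama1 did not pass the filter without BALB/c or without clusters 5 to 9. Of 16 patterning factors tested Meis1 was lower (-0.71). Of 17 stem and progenitor genes tested, 3 were higher, Thbs4, Igfbp5 (0.76) and Top2a (1.44), and 0 were lower. Igfbp5 and Top2a were each higher in 3 of 4 libraries and were not called without BALB/c, nor was Top2a without nude. The tanycyte list had 2 genes tested and 1 called, Crym (1.15), and the lists of BMP, FGF, hedgehog and Notch genes, neurons, oligodendrocytes, OPCs, microglia, mural cells, neuroblasts, fibroblasts and choroid plexus had 0. No endothelial gene passed the filter on low counts.

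The number of Dkk3 molecules gave a finer view. Veph1 was at 4.96, 4.63, 12.5 and 7.40 CPM in nuclei with no Dkk3 UMI, 6.09, 24.0, 27.7 and 20.8 CPM at 1 UMI, and 28.4, 57.7, 103 and 121 CPM at 2 or more. The value was higher at each step in every library. Drd3 was at 11.6, 12.2, 7.17 and 2.29 CPM at 0 UMIs, 17.2, 21.3, 5.94 and 5.87 CPM at 1 UMI, and 37.9, 92.2, 37.0 and 25.5 CPM at 2 or more, so nude was lower at 1 UMI than at 0. The last values rest on 12, 8, 5 and 45 Drd3 UMIs, and those of Veph1 on 9, 5, 14 and 214. Lrig1 was lowest at 2 or more UMIs, with 111, 80.7, 103 and 140 CPM. Of the 12 largest rises, 11, 6, 12 and 12 were higher at 2 or more UMIs than at 1 UMI in the 4 libraries, and 11, 11, 10 and 12 were higher at 1 UMI than at 0. All 12 of the largest falls were lower at 1 UMI than at 0 in every library, and 7, 9, 11 and 9 of them were lower at 2 or more UMIs than at 1. These genes were chosen on all Dkk3-positive against Dkk3-zero nuclei, and the strata use the Dkk3 count of the rule, so neither step is independent of that choice and both are descriptions. When only nuclei with 2 or more Dkk3 UMIs were counted as positive, 190 genes were higher and 184 lower, of which 93 and 48 were among the original calls.

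**Figure D3:**
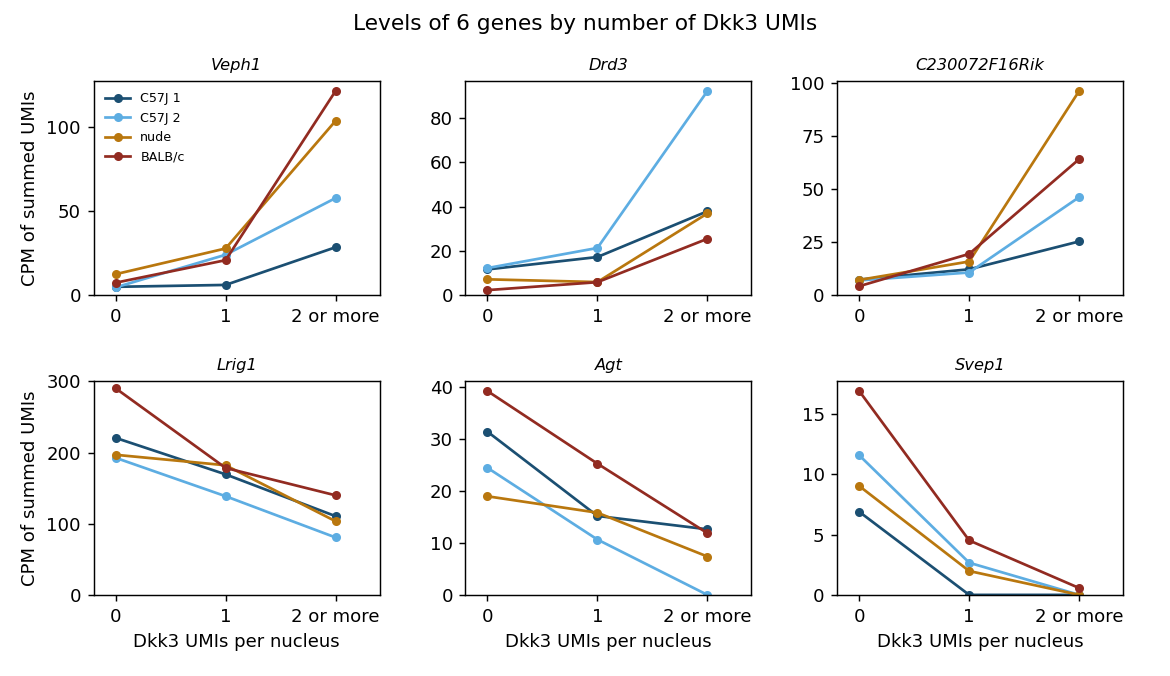
CPM of summed UMIs (vertical axes) for Veph1, Drd3, C230072F16Rik, Lrig1, Agt and Svep1 in gated astrocytes with 0, 1 or at least 2 Dkk3 UMIs (horizontal axes); lines join the values of a library. Veph1 reaches 121 CPM in BALB/c at 2 or more UMIs from 7.40 CPM at 0, while Lrig1 goes from 290 to 140 CPM.

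The promoters of the called genes were searched for 5 motifs, because several rises were of genes known from cilia, many of which RFX factors control. The promoter was taken as 250 bases before to 50 after the start, from RefSeq on GRCm38.p6 (mm10), which listed 79 of the 106 higher and 43 of the 59 lower genes, and the first start listed was used. The X-box of RFX factors, searched on both strands as GTNNCC and GNNAC with 3 bases between them, was in 11 of the 79 (13.9%) and in 1 of the 43 (2.33%), against 5.81% of promoters of tested genes and 4.60% of all 27025. The RFX half-site GTTGCCA, which can overlap it, was in 6.33% of the higher, 4.65% of the lower, 4.07% of tested and 4.46% of all promoters. The TCF/LEF core CTTTGAA was in 6.33%, 4.65%, 3.43% and 5.27% of the same sets, the cyclic AMP element TGACGTCA in 2.53%, 0%, 3.42% and 1.88%, and the E-box CACGTG in 5.06%, 2.33%, 10.3% and 7.24%. The letters and the 5 motifs were chosen with the called genes known, and no test was run. Enkur, Ak9 and Igfbp5 were the genes named above whose promoters held the X-box letters. Their promoters are shown 5′ to 3′ in the direction of the gene, from 250 bases before to 20 after the start, with the X-box match in capitals, which in Igfbp5 is on the opposite strand and so reads as the reverse complement of the motif. The matches began at positions -12, -11 and -18 from the start. A match is a description and not a site.
Enkur: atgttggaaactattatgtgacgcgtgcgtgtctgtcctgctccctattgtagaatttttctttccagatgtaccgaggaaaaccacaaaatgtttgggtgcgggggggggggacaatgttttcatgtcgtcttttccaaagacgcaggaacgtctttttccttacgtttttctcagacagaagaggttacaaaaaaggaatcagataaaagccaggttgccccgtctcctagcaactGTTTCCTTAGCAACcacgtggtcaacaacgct
Ak9: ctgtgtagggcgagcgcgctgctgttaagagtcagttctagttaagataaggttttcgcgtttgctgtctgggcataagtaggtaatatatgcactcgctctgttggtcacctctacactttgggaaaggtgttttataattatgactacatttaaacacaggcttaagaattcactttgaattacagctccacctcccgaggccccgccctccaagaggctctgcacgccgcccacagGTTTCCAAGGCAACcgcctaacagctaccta
Igfbp5: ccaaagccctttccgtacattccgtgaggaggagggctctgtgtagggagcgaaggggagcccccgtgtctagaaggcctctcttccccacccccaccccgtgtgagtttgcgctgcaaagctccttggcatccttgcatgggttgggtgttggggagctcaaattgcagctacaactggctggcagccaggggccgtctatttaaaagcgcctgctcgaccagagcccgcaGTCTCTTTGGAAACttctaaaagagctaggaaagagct
These are chr2:21205346-21205615 (minus strand), chr10:41303684-41303953 (plus strand) and chr1:72874846-72875115 (minus strand).

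To see where the Dkk3-positive nuclei fell among all gated astrocytes, the 7003 nuclei were clustered with Dkk3 and the 5 gate genes left out. They formed 9 clusters, which are named by number. Cluster 4 (955 nuclei, led by Veph1, C230072F16Rik, Adamts18, Adgrv1 and Cfap44) had Dkk3 in 32.8%, 20%, 26.6% and 74.3% of its nuclei. Cluster 3 (1246 nuclei, led by B230323A14Rik and Slc6a9, with Agt, Aldh1a1 and Lrig1 among its first 10 genes) had 6.80%, 7.06%, 6.39% and 14.9%. Clusters 1 and 2 lay between, with 21.4%, 13.7%, 17.7% and 43.4% in cluster 1 and 20.5%, 13.4%, 12.1% and 36.1% in cluster 2. The order of clusters 4 and 3 was the same in every library. Median UMIs were 1937 to 3851 in cluster 4 and 2148 to 4529 in cluster 3, and the part of depth in the shares was not tested.

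Dkk3-positive astrocytes were spread over these clusters and were not confined to cluster 4. It held 24.7% of them, and clusters 1, 2 and 3 held 41.1%, 21.3% and 7.01%. Of the 7003 gated nuclei, cluster 4 held 955 and clusters 1, 2 and 3 held 2774, 1568 and 1246. Over all 4 libraries, Dkk3 was in 24.1% and 22.1% of clusters 1 and 2, near the 23.2% of the whole gate. The parts held by clusters 1 and 2 were thus close to their size. These pooled values rest on BALB/c for 796 of the 1626 nuclei. Clusters 5 to 9 held 460 nuclei, 95 of them Dkk3-positive, and had leading genes other than astrocyte markers. Cluster 5 (184 nuclei) had the myelin gene Mog among its leading genes, cluster 6 (122) was led by Clstn2, Ebf2 and Dlgap2, and cluster 7 (66) by Inpp5d, Siglech and Ikzf1, which microglia express. Cluster 8 (55) was led by Tnr and also by Cspg4 and Pdgfra, which are known from OPCs. Cluster 9 (33 nuclei, 26 from BALB/c) was led by Cemip, Slc6a20a, Arhgap29 and Lama1, with Igf2 among its leading genes. The clustering used the genes compared above, so leaving out a cluster removes part of the difference by construction. Without cluster 4, an alternative chosen after seeing the data, 13 genes were higher and 31 lower, of which 11 and 27 were among the original calls. Drd3, itself among the leading genes of cluster 4, then had a log2 fold change of 0.22 (adjusted p = 0.961 by edgeR). Agt, among the leading genes of cluster 3, which was kept in, had -1.05, and Svep1 had -2.81. Without clusters 5 to 9, 110 genes were higher and 64 lower, and Cemip, Lama1, Gm19500 and Nrip2 were not among them.

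**Figure D4:**
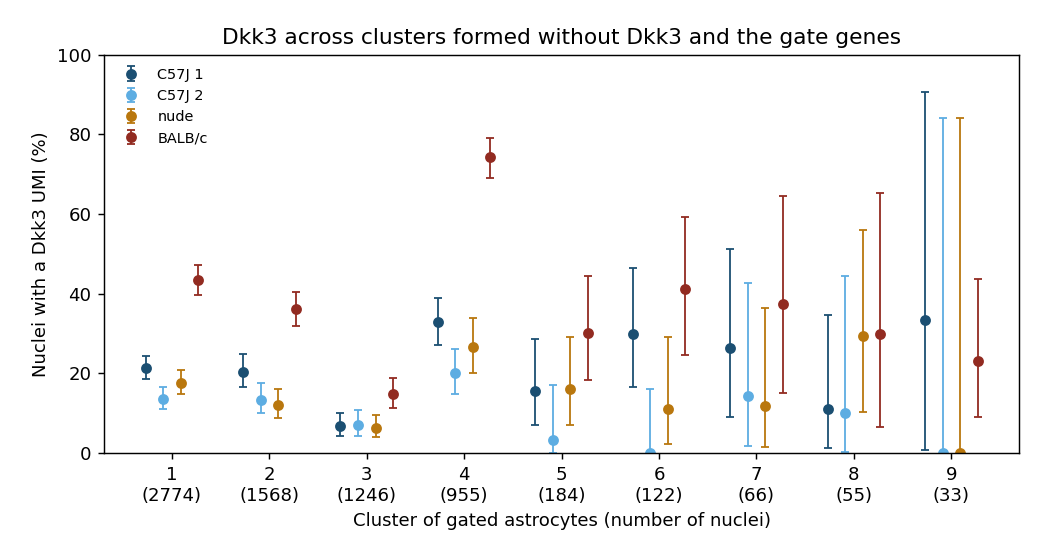
Percentage of nuclei with a Dkk3 UMI (vertical axis) in the 9 clusters of gated astrocytes (horizontal axis, with the number of nuclei), by library; bars are exact 95% binomial intervals. In each library cluster 4 is higher than cluster 3, and in BALB/c the shares are 74.3% and 14.9%.

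The study compared C57J mice with nude and BALB/c mice, and the same comparison was made within Dkk3-positive astrocytes. Unc13c and Cfap54 were higher in nude and BALB/c, and 9 genes were lower, of which Gm17167 and Trim12a had no UMI in either library. Of 10259 genes tested, 2 (0.0195%) were called higher and 9 (0.0877%) lower by edgeR's quasi-likelihood test (Benjamini-Hochberg adjusted, same limits), while 720 had an unadjusted p below 0.05. Nude and BALB/c were both above both C57J libraries for 1523 genes and both below for 2229.

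Unc13c, a presynaptic priming factor of the Munc13 family, was at 115, 95.3, 355 and 356 CPM. The log2 fold change was 1.78 (SE 0.21, adjusted p = 0.0214 by edgeR). Among the libraries of batch 2, nude and BALB/c each had a log2 ratio to C57J 2 of 1.90, and C57J 1 to C57J 2 was 0.27. Cfap54, which is needed for the axoneme of motile cilia, was at 47.6, 52.0, 166 and 139 CPM, a log2 fold change of 1.66 (SE 0.22, adjusted p = 0.0396 by edgeR). Unc13c was not called without C57J 1 (1.94, adjusted p = 0.251) or without C57J 2 (1.67, adjusted p = 0.0512), and Cfap54 was not called without C57J 1 (1.58, adjusted p = 0.689), by the same edgeR test, with log2 fold changes near those of all 4 libraries. Cfap54 was also not called without the nuclei of the ependymal gate (1.52, adjusted p = 0.0641 by edgeR), of which 2 were Dkk3-positive. Nor was it called without nuclei with neuronal markers over 1% of UMIs (1.63, adjusted p = 0.0740 by edgeR). Both settings were chosen after seeing the data. Of the 10 genes named by this comparison, 9 were still called in the first setting and 8 in the second. In the comparison by Dkk3 the log2 fold changes of Unc13c and Cfap54 were -0.34 and 0.47.

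Gm17167, a noncoding transcript on chromosome 4, had 67 and 24 UMIs in C57J 1 and C57J 2 and 0 in nude and BALB/c. Against a floor of 3 counts over the nude and BALB/c libraries together its CPM was at least 79.4-fold lower. Reads of every strain were aligned to mm10, and the part of alignment in counts of 0 was not tested. Trim12a, a tripartite motif gene, had 48, 24, 0 and 0 UMIs and was at least 62.9-fold lower. It has a neighbouring paralog, Trim12c, so the assignment of its reads is uncertain. Cxcl5, a chemokine that attracts neutrophils, had 44, 13, 0 and 1 UMIs, a ratio of 149 with a counting interval of 25.7 to 5998, and Cldn34c1, of the claudin family, had 27, 11, 0 and 3, a ratio of 33.2 (10.5 to 168). Cldn34c1 was not called without BALB/c (adjusted p = 0.107 by edgeR). Without clusters 5 to 9, Cldn34c1 and Cfap54 each had an adjusted p of 0.0569 by edgeR.

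The other lower genes kept a measurable level. 1500004A13Rik was at 69.9, 95.3, 12.5 and 9.30 CPM, with a log2 fold change of -2.93 (SE 0.30, adjusted p = 0.0154 by edgeR). Stambpl1, a deubiquitinating enzyme, was at 57.6, 71.5, 12.5 and 8.80 CPM (log2 fold change -2.65), C030005K06Rik at 58.4, 75.8, 10.9 and 10.6 CPM (-2.55), and Fam163a at 63.0, 41.2, 4.69 and 6.53 CPM (-3.07). The log2 ratios to C57J 2 within batch 2 lay between -3.36 and -2.52 for these 4 genes. Fggy, a carbohydrate kinase, was the ninth gene called lower, at 106, 106, 17.2 and 27.1 CPM (log2 fold change -2.07). In Dkk3-positive against Dkk3-zero astrocytes, the log2 fold changes of these 4 genes lay between -0.10 and 0.07, and none of the 8 named lower genes was called. Without C57J 1, of the 8 named genes that were tested 1 was still called, and that fit sets 1 C57J library against both others.

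**Figure D5:**
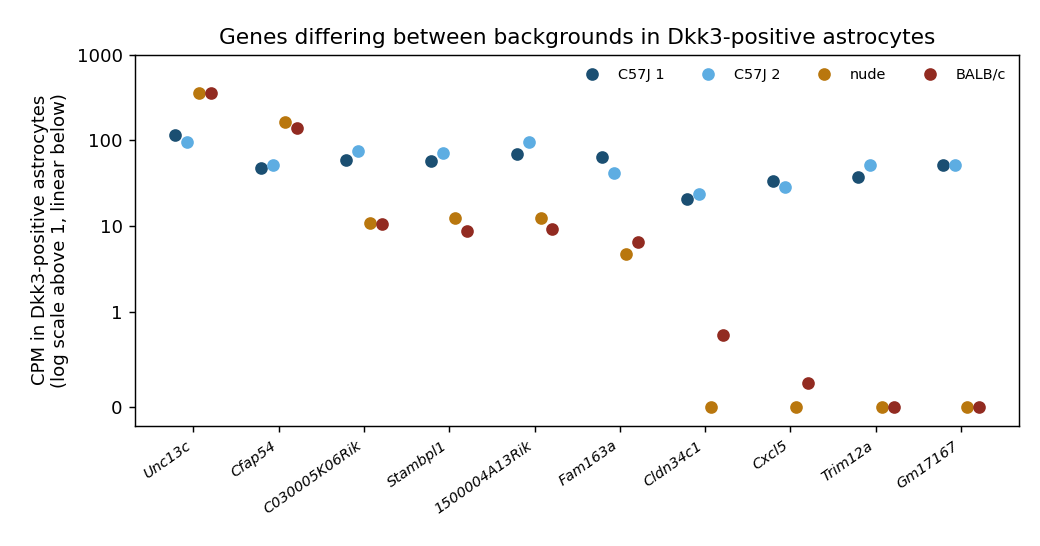
CPM in Dkk3-positive astrocytes (vertical axis, log scale above 1 and linear below) of the 10 genes named by the comparison of backgrounds; points are libraries. For each gene both nude and BALB/c are above, or both are below, the C57J libraries, and Gm17167 and Trim12a are at 0 in both.

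No member of the fixed lists was called between backgrounds in Dkk3-positive astrocytes. The 16 junction and lamellipodium genes, of which 15 were tested, had a median log2 fold change of -0.21 against -0.01 over all genes tested, and 8 had lower values in nude and BALB/c than in either C57J library, as had 21.7% of all genes tested. The 10 of 12 intracellular Wnt genes tested had a median of 0.10 and the 11 of 19 Wnt receptors 0.18. Of dopamine receptors only Drd3 passed the filter on low counts, with a log2 fold change of -0.86, and its values of 12.5 and 14.6 CPM in nude and BALB/c lay below the 22.3 and 34.7 CPM of C57J 1 and C57J 2. Of the 8 oligodendrocyte markers, 7 were tested with a median of -0.51, and 5 were lower in both libraries than in either C57J library. The 7 microglial markers tested had a median of -0.48, 13 neuronal ones -0.15 and 4 neuroblast ones -0.44, and 2, 4 and 1 of them were lower in both libraries. Without nuclei with markers of any other class, 8 of the 10 named genes were still called. The other 2 kept their sign. The numbers were the same without nuclei with neuronal markers over 1% of UMIs. Both settings were chosen after seeing the data, and the part of these marker levels in the medians was not tested.

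Whether the difference between Dkk3-positive and Dkk3-zero astrocytes depended on background was tested directly. Of 13895 genes, 0 were called by edgeR's quasi-likelihood test (0.0%), with 640 at an unadjusted p below 0.05, and 0 by DESeq2, with 38. The genes with the smallest p were Dnah12, Thbs4, Adamts18, Nrg1 and Dnah6, with adjusted p of 0.229, 0.229, 0.229, 0.486 and 0.486 by edgeR. Nrg1, a ligand of ErbB receptors, was at 444, 444, 875 and 1566 CPM in Dkk3-positive and 340, 409, 647 and 542 CPM in Dkk3-zero astrocytes. It was higher in Dkk3-positive astrocytes of every library, most so in BALB/c. Dnah12 and Dnah6, heavy chains of axonemal dynein, were at 48.4 and 39.0 CPM in Dkk3-positive astrocytes of nude, against 1.87 and 7.48 CPM in its Dkk3-zero astrocytes. Dnah12 is itself among the 6 ependymal markers, as is Cfap299. The 31 Dnah12 UMIs and 25 Dnah6 UMIs of nude stand beside its ependymal marker level of 120 CPM, and the part of these nuclei in the result was not tested.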

How the data were processed

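Per the labels and the study's methods, the authors isolated nuclei from frozen LS tissue, prepared 10x 3′ libraries, aligned reads to mm10 with Cell Ranger 7.0.1 and deposited the raw UMI counts as gene by barcode matrices. Annotation release and the treatment of intronic reads and strand are not given in the sources used here. Members and gene lists were chosen with earlier results of these data known.

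Counts were summed per library and Dkk3 state and tested with edgeR 4.0.16 (glmQLFit, glmQLFTest, filterByExpr, TMM) in R 4.3.3, with library as a block for the Dkk3 comparison and DESeq2 1.42.0 as an alternative. Dkk3 and the gate genes were not tested. The call limits were an adjusted p of 0.05 and a log2 fold change of 0.5. The scripts were tested on simulated data. Nuclei were clustered by the Leiden algorithm (leidenalg 0.10.2, resolution 0.6, 20 components of 2000 variable genes). Doublet scores used an expected rate of 0.8% per 1000 barcodes. Gene positions are from GENCODE vM21 (32158 of 32285 identifiers matched).

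Named were the 12 largest rises and 12 largest falls among called genes that moved in 1 direction in all 4 libraries and reached 10 CPM, called list members, members of the Wnt, dopamine receptor and astrocyte subtype lists, the 8 largest changes each way between backgrounds, the 5 smallest interaction p-values and the most abundant marker of a class, of which 1 is not reported here. Leading genes of clusters and Fggy (ninth called gene) were named after their values were seen. The alternatives were other scaling, filters, depth, Dkk3 and gate limits, and each library left out. A published C57J dataset and the spatial data of the study were not analysed here.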

Additional observations from a re-analysis of the deposited data

How the results depend on the processing

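Relative to 106 genes higher and 59 lower in Dkk3-positive astrocytes, DESeq2 called 35 and 16 (all among the edgeR calls), the fit with no library block 0 and 0 (319 genes at an unadjusted p below 0.05), Dkk3 at 2 or more UMIs 190 and 184, an adjusted p alone 179 and 178, and nuclei passing a gate of a second class left out 3 and 10 with 3421 genes tested. Dkk3-zero nuclei matched in depth gave 69 higher and nuclei thinned to 2000 UMIs 66. Predicted doublets left out gave 101 higher and 69 lower, and 23 of the 24 named genes were still called. With cluster 4 left out, an alternative chosen after seeing the data, the counts were 13 and 31. Each library left out in turn gave 28 to 137 higher and 13 to 69 lower. All 24 named genes kept their sign in every setting in which they were tested. None of them was tested with nuclei passing a second-class gate left out, so that setting does not bear on them. DESeq2 called only 10 of 19 tested. The fit with no library block called 0 of 24, that without BALB/c 12 of 23 and that without cluster 4 10 of 19. Between backgrounds, against 2 higher and 9 lower, DESeq2 called 9 and 14, no filter on low counts 80 and 59, thinning 1 and 5, Dkk3 at 2 or more UMIs 1 and 3, the second-class gate left out 0 and 0, and each library left out 0 to 265 and 1 to 254. The highest counts came without nude, when BALB/c was the lone library of its side. The gate of at least 8 UMIs gave 5 higher. Predicted doublets left out gave 2 higher and 8 lower, and 8 of the 10 named genes were still called. Of the alternatives chosen after seeing the data, cluster 4 left out gave 4 higher, and nuclei with neuronal markers over 1% or ependymal nuclei left out gave 1 each.

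The Dkk3 share of C57J 1, C57J 2, nude and BALB/c was 7.83%, 6.52%, 6.94% and 14.9% at 1000 UMIs, 14%, 11%, 12.6% and 24.0% at 2000 UMIs, 4.42%, 2.25%, 2.68% and 17.5% at 2 or more Dkk3 UMIs, and 2.68%, 1.39%, 1.61% and 6.59% of all nuclei. It was 14.8% in C57J 2 with the stricter gate, and 21.7% in nude and 36.2% in BALB/c without nuclei of a second class. That last setting left 39, 14, 13 and 307 Dkk3-positive and 163, 90, 47 and 542 Dkk3-zero nuclei in library order. The share of Dkk3-positive nuclei of BALB/c with a second class was 68.1% at 2000 UMIs. No paired analysis was possible between backgrounds because no library of nude or BALB/c shares a pool with a C57J library. At 1 UMI of Dkk3 in most positive nuclei, depth limits which nuclei are found.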
